A study of Mus musculus with 13 samples.

Results

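H3K27ac peaks of C2C12 cells were compared between 6 h and 12 h in differentiation medium. The members were every peak of the deposited 6 h and 12 h lists, 82369 and 101331 peaks, together 183700 of the 1117291 peaks in the 12 lists used. C2C12 is a mouse myoblast line that leaves the cell cycle and fuses into myotubes when growth medium with fetal bovine serum is replaced by differentiation medium with little horse serum. Unedited cells were sampled at -24, 0, 6, 12, 24, 48 and 72 h relative to the change of medium, with 1 library per time. A further 5 libraries at 48 h came from C2C12 cells edited with CRISPR/Cas9: the Myod1 knockout, and the lines H1, H3, H23 and H34, which lack regions that the submitters name hotspots. H23 was made by removing H3 from a line without H2, and H34 by removing H3 from a line without H4. Each edited line is 1 library, and the labels do not say whether it is a clone.

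H3K27ac is acetylation of lysine 27 on histone H3, which marks active promoters and enhancers. In myoblasts that enter differentiation, MyoD, encoded by Myod1, binds enhancers and recruits acetyltransferases, and the late muscle genes are switched on over the following days. The comparison asks which acetylated sites appeared and disappeared within the first hours of low serum, before myotubes form. A histone mark does not show which gene an enhancer serves, and no annotation of mm9, the build of the files, was used here. Regions are therefore given by mm9 position, counted from 1, with no gene names, and exons, introns and promoters were not told apart.

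The strength of a peak was its score in the fifth column of the deposited list, a value of the peak caller with no stated unit. It ranked peaks within a list and was never compared in size between libraries. The 6 h scores ran from 4.0 to 309.39 with a median of 11.96, and the 12 h scores from 4.0 to 358.37 with a median of 10.72. Read depth was unknown, so a longer list cannot be told apart from a deeper library. With 1 library per time no test between times was run. The 95% Wilson intervals in parentheses cover counting error only, and neighbouring peaks are not independent.

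The step from 6 to 12 h added many peaks, most of them weak and narrow, while nearly all strong peaks of either time had a counterpart at the other. A gained peak was a 12 h peak that overlapped no 6 h peak by even 1 bp, and a lost peak was a 6 h peak that overlapped no 12 h peak. There were 35838 gained peaks, 35.4% of the 12 h list, and 14817 lost peaks, 18% of the 6 h list. The median gained peak was 158 bp wide, and the median 12 h peak with a 6 h counterpart 374 bp. Lost peaks were as narrow, at 155 bp, whereas kept 6 h peaks measured 334 bp.

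Counted in bases, the change was divided between new peaks and the edges of old ones. Peaks covered 35.0 Mb at 6 h and 41.3 Mb at 12 h, of which 28.1 Mb were common to both. Of the 13.3 Mb covered only at 12 h, 6.72 Mb lay in gained peaks and 6.54 Mb in peaks that both times shared. Of the 6.94 Mb covered only at 6 h, 2.65 Mb lay in lost peaks and 4.28 Mb in shared ones. Shared sites were thus redrawn on a scale like that of the gains. Where 1 peak of each list overlapped only the other, in 46730 pairs, 57.1% were wider at 12 h, and the median difference in width was 18 bp. Among shared peaks, 7753 of 12 h joined 2 or more of 6 h, and 6255 of 6 h were divided into 2 or more at 12 h.

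Strength separated the peaks that changed from those that did not. Each list was divided by score into 4 classes of 25%, called strong, medium, low and weak, with equal scores ranked by width. At 12 h strong peaks scored 21.61 or more, and weak peaks up to 7.16. Of the 35838 gains, 100 were strong, 4038 medium, 12961 low and 18739 weak. Gains thus made up 0.395% of strong, 15.9% of medium, 51.2% of low and 74.0% of weak 12 h peaks. The strong gains had a median score of 23.08, just above the limit of their class, and 27 of them lay at 21.61 exactly. That score was held by 1430 peaks, and 21 further gains with it ranked as medium because they were narrower. The highest score of any gain was 52.32, below 7302 other 12 h peaks. The number of strong gains rested on the overlap rule: with a gap of up to 500 bp counted as shared it was 33, with peaks merged within 1 kb it was 2, and with the midpoint of the peak required to lie inside the other it was 1344.

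Losses were distributed in the same way over the 6 h list. Of 14817 lost peaks, 25 were strong, 1206 medium, 5213 low and 8373 weak. The highest score of a lost peak was 31.46, below 12881 other 6 h peaks. In the strongest 10% of each list, no 6 h peak was lost and 1 peak of 12 h was gained. In the weakest 10%, 77.2% of the 12 h peaks were gained and 45.0% of the 6 h peaks were lost.

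**Figure D1:**
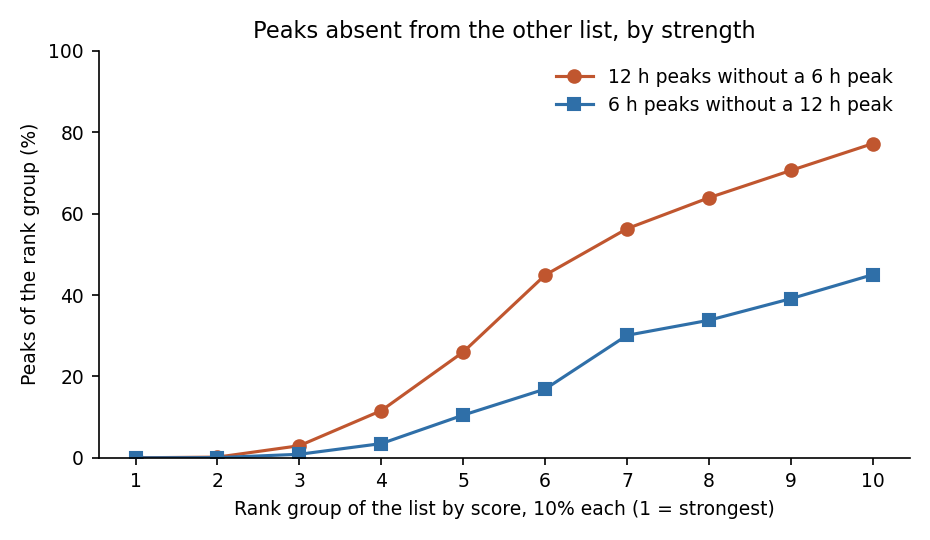
Percent of peaks absent from the other list (vertical axis) in successive groups of 10% of a list by score, from the strongest (1) to the weakest (10). Gains are circles, on the 12 h list, and losses are squares, on the 6 h list, and they reach 77.2% and 45.0% in the last group.

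Equal numbers of strongest peaks were then compared. With the 12 h list shortened to its 82369 strongest peaks, 26.6% of them had no 6 h peak and 22.9% of the 6 h peaks had no 12 h peak, so that gain and loss came closer together. At the 40000 strongest of each list the shares were 19.0% and 16.9%, and at the 10000 strongest 20.3% and 19.1%. At 40000 and 10000, most unmatched peaks ranked outside the shortened list of the other time. Set against the full list, 1 of the 10000 strongest 12 h peaks was gained and none of the 10000 strongest 6 h peaks was lost. For the 20000 strongest the counts were 16 gained and 24 lost, and for the 40000 strongest 1436 and 1063.

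On the full lists, this step had a high share gained and a low share lost beside the other steps of the course. The share gained was 36.0% from -24 to 0 h, 24.2% from 0 to 6 h, 14.0% from 12 to 24 h and 28.8% from 24 to 72 h. The share lost was 18.1%, 26.6%, 45.4% and 34.7% in the same order. These lists held 69251 to 101331 peaks, and steps into a longer list had the higher shares gained. With equal numbers of strongest peaks in each step, 26.6% were gained here, against 29.8%, 25.5%, 18.1% and 32.5% in the other steps. The share lost was then 22.9%, against 21.3%, 24.5%, 35.5% and 29.7%. Both shares of this step thus lay within the range of the others. Of strong peaks, 25 were lost between 6 and 12 h, the fewest of the 5 steps, and 38, 61, 551 and 573 in the others in the same order. The 100 strong gains lay within the range of the other steps, which was 36 to 226.

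Many gains at 12 h were places that had carried the mark before. Of the 35838 gains, 12351 (34.5%) had a peak at -24 or 0 h, and 3626 had one at both. Over all 12 h peaks 69.7% had a peak at -24 or 0 h. By class the share was 78.0% of strong gains (68.9 to 85.0), 58.9% of medium, 40.0% of low and 25.2% of weak gains (24.5 to 25.8). Shared peaks of the same classes had an earlier peak in 99.6%, 91.9%, 75.8% and 64.0% of cases. Starting from the 0 h list, 22998 peaks had none at 6 h, and 10524 of these (45.8%, 45.1 to 46.4) had one again at 12 h. Of the 63467 peaks of 0 h still present at 6 h, 92.0% had one at 12 h.

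Followed forward, 54 of the 100 strong gains were found at both later times and few of the weak ones. Over all 12 h peaks 40.5% had a peak at both 24 and 72 h. Of the 100 strong gains, 76 had one at 24 h, 62 at 72 h and 54 at both (54.0%, 44.3 to 63.4). The share with both was 23.7% (22.4 to 25.0) of medium gains, 10.5% (10.0 to 11.1) of low gains and 4.69% (4.39 to 5.0) of weak gains. Weak gains were found at 24 h in 12.9% of cases and at 72 h in 15.2%.

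In every class a gain was found later less often than a peak already there at 6 h. Shared peaks had a peak at both 24 and 72 h in 92.1% of strong (91.7 to 92.4), 51.7% of medium, 22.2% of low and 12.3% of weak cases. Gains were also narrower than shared peaks of their class, at medians of 304 against 662 bp for strong and 135 against 157 bp for weak peaks. Peaks of like width were therefore set side by side. Among medium peaks of over 200 and up to 300 bp, 24.2% of 1110 gains and 41.0% of 4504 shared peaks were found at both times. Among weak peaks of up to 150 bp the shares were 3.48% of 11301 and 9.97% of 3068. In all 14 pairings of class and width with 50 or more peaks of each kind, all of them below the strong class, the shared peaks had the higher share.

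**Figure D2:**
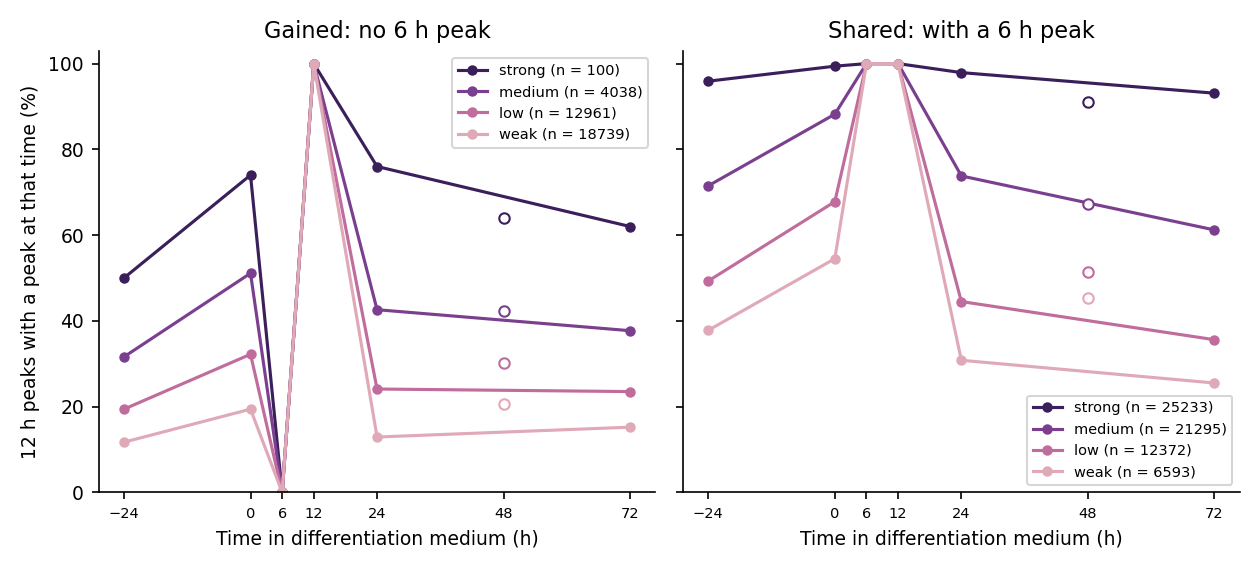
Percent of 12 h peaks with an overlapping peak at each time (horizontal axis, hours in differentiation medium), for gained peaks (left) and shared peaks (right), by class of score. Filled points are the lists with 5 columns and open points the wild-type library at 48 h, whose list has another format. Values at 6 and 12 h are 0 or 100% by definition, and at the other times the classes keep the order strong, medium, low, weak.

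Gains of opposite kinds stood at the ends of this range. New and lasting gains had no peak at -24, 0 and 6 h and had one at 24 and 72 h. They numbered 1627, 4.54% of all gains (4.33 to 4.76), and 12 were strong, 349 medium, 719 low and 547 weak. At the other end, 17071 gains, 47.6% (47.1 to 48.2), had no peak in the 5 other time course lists of the same format. Of these 16.6% had one in wild-type cells at 48 h. These had a median width of 141 bp, and new and lasting gains one of 204 bp. Gains also made up most of what was absent next: of the 46038 peaks of 12 h with no peak at 24 h, 28496 (61.9%, 61.5 to 62.3) had been gained since 6 h. Over all 12 h peaks 35.4% were gains. A 24 h peak was lacking for 79.5% of gains and 26.8% of shared peaks. Gains were weaker and narrower than shared peaks, and the part of this was not tested.

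Gains with an earlier peak were found later more often than gains without one in the medium, low and weak classes. The shares with a peak at 24 and 72 h were 25.6% (23.9 to 27.4) and 21.0% (19.1 to 23.1) for medium gains, and 647 of 5181 and 719 of 7780 for low gains. They were 7.02% (6.33 to 7.79) and 3.9% (3.59 to 4.23) for weak gains. For strong gains they were 42 of 78 and 12 of 22, a difference within the counting error.

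**Figure D3:**
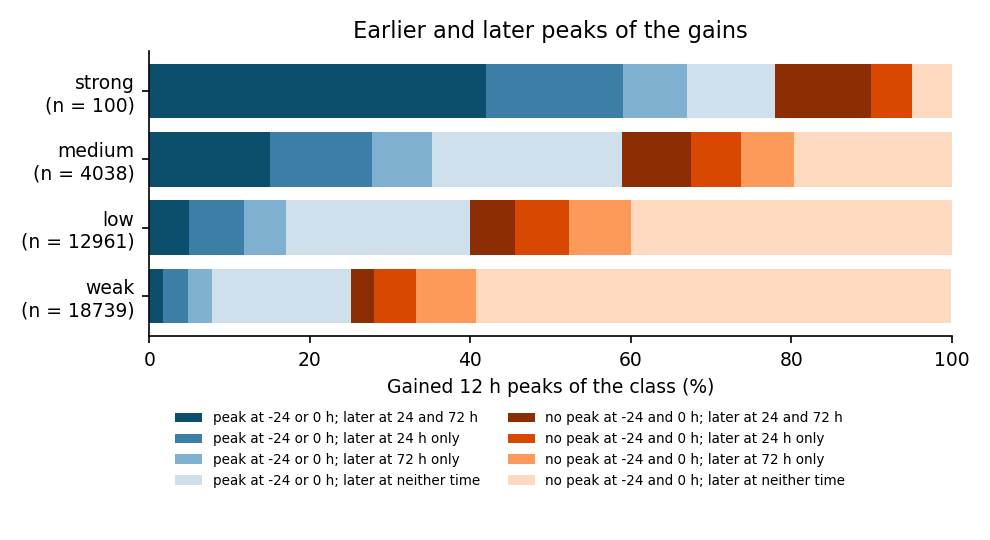
Gained 12 h peaks of each class by score, divided by whether a peak was present before (blue, at -24 or 0 h, and orange, at neither) and after (darkest, at 24 and 72 h, to palest, at neither). The horizontal axis is the percent of gains in the class. The palest orange part, gains found in no other of the 6 lists with 5 columns, is 5.0% of strong and 59.2% of weak gains.

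Many gains lay close to a peak that already existed, strong gains more often than weak ones. The median gap from a gained peak to the nearest 6 h peak was 641 bp, and 44.0% of gains lay within 500 bp of one. Of the strong gains 67 of 100 lay that close, with a median gap of 252 bp, and of the weak gains 37.5%, with a median of 846 bp. Lost peaks had a median gap of 367 bp to the nearest 12 h peak. With a gap of up to 500 bp counted as shared, the gained share was 19.8% and the lost share 7.47%. Whether such near gains are sites of their own or parts of one acetylated block was not tested.

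The history of a gain varied with its distance from the 6 h peaks, though not in a steady order. Among low gains within 500 bp of a 6 h peak 48.7% had a peak at -24 or 0 h. The share was lowest at 1 to 5 kb, with 27.1%, and higher again beyond 50 kb, with 38.2%. Shares of low gains with a peak at both 24 and 72 h lay between 8.6% and 11.3% in all 6 groups of distance. For weak gains the share was 6.3% within 500 bp and 3.34 to 4.09% in the groups farther away. Over all gains it was 11.2% within 500 bp and 6.34 to 8.4% farther away. Medium gains ranged from 17.3% to 26.3%, with the lowest share beyond 50 kb. Gains more than 50 kb from any 6 h peak numbered 1046, of which 372 were low.

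Domains were formed by joining 12 h peaks no more than 12500 bp apart, a distance often used to build super-enhancers, which are dense clusters of enhancers near genes of cell identity. Of the gains, 31407 (87.6%) lay in domains that already held a 6 h peak, against 95.6% of all 12 h peaks, since every shared peak lies in such a domain. Gains made up 51.7% of the peaks that formed a domain alone and 36.2% of those in domains of 10 or more. There were 3375 domains without one among the 19715 at 12 h, and 2586 of these consisted of a single peak. Of the 3375, 1207 (35.8%) held a peak at -24 or 0 h and 337 (9.99%) held peaks at 24 and 72 h. In the other direction, 1742 of the 18653 domains at 6 h held no 12 h peak, and 1518 of these were a single peak. Most domains of each time thus held a peak of the other, and gains lay in such domains less often than 12 h peaks in general. The 1627 new and lasting gains were spread over 1215 domains, 960 of which held just 1.

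The 5 new and lasting gains with the highest scores were 187 to 474 bp wide. The leading pair, chr15:81985391-81985615 and chr1:166829101-166829287, both scored 29.15, below 17178 other 12 h peaks. The chromosome 15 peak was covered over 71.6% of its 225 bp at 24 h and over 100% at 72 h. At 48 h it had a peak in the H1 and H34 lines and in none of the other 4 libraries. The chromosome 1 peak was covered over 74.9% at 24 h and 73.3% at 72 h. At 48 h all 5 edited lines had a peak there, Myod1 knockout included, and the wild-type library had none. The others were chr2:118600627-118601006 with a score of 27.6, chr11:3030779-3031140 with 24.76 and chr11:102914638-102915111 with 23.08. The chromosome 2 peak was absent from every library at 48 h, and chr11:3030779-3031140 was present in all 6. No list of repeat-rich or poorly mapped regions was used, and the part of such sequence in peaks near the starts of chromosomes 9 and 11 was not tested. With a gap of up to 500 bp counted as shared, 2 of these 5 regions kept their pattern.

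Among gains found at 12 h alone, chr1:135887515-135887795 had the highest score, 24.57. It was followed by chr15:102055157-102055336 and chr2:131317734-131317889 with 23.08 each, and by chr7:139535863-139536401 and chr5:94947359-94947663 with 21.61 each. Absence from the 5 other lists of the course did not mean absence at 48 h. The chromosome 2 and chromosome 5 peaks were covered over 100% of their length in all 6 libraries at 48 h. The chromosome 5 peak lay 1249522 bp from the nearest 6 h peak.

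Returning gains, present at -24 and 0 h but not at 6 h, reached higher scores than the new ones. The first, chr11:3026943-3027711, had the score of 52.32 given above and lies near the chromosome start, where repeats were not checked. Peaks covered 30.7%, 15.0%, 0%, 81.1% and 95.1% of its 769 bp at -24, 0, 6, 24 and 72 h, and more of it was thus covered after 12 h than before 6 h. The others were chr15:74915920-74916069 with 37.15, chr8:119502623-119502831 with 35.49, and chr8:124747237-124748164 and chr15:76531590-76531790 with 30.71 each. They differed in their surroundings: the nearest 6 h peak was 14139 bp from the first chromosome 8 peak and 42 bp from the second. Of these 5 regions, 3 kept their pattern with a gap of up to 500 bp counted as shared.

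A single domain held several strong gains that lasted. It spanned 21.8 kb, chr11:3023205-3045016, and held the first 12 h peaks of that chromosome, whose repeats were not checked. With 4 strong gains found at 24 and 72 h, it was the only domain with more than 1. The interval held 4, 5, 3, 19, 15 and 19 peaks at -24, 0, 6, 12, 24 and 72 h. At 48 h it held 17 peaks in wild-type cells, 24 in the Myod1 knockout and 12 to 22 in the hotspot lines. The libraries up to 6 h were thus low and all later ones high, and the knockout, whose list was the shortest of the 12, held the most. Without this domain 96 strong gains were left, of which 52.1% (42.2 to 61.8) had a peak at 24 and 72 h.

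A further 50 domains held 1 strong lasting gain each. The widest were chr15:83233971-83372963, chr11:102845958-102979308, chr2:35085341-35198748 and chr15:80994871-81106196. They already held 50, 46, 41 and 44 peaks at 6 h, and held 72, 64, 61 and 67 at 12 h. The domain chr11:102845958-102979308 also held the most new and lasting gains of any domain, 10, with 74 peaks at 24 h and 66 at 72 h. The next, chr17:7790611-7890825, held 9 of them. It had 34, 56, 50, 73, 79 and 64 peaks at -24, 0, 6, 12, 24 and 72 h, with the 2 highest counts at 12 and 24 h. At 48 h the H3 line held 8 peaks there, against 40 each in wild-type and Myod1 knockout cells and 49 to 74 in the 3 other hotspot lines. The ranking by new and lasting gains was chosen after the values were seen.

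The largest cluster of peaks without any 6 h peak, also singled out after the values were seen, was chr2:172847574-172854788. Its 8 peaks of 12 h lay within 7.21 kb, and the nearest 6 h peak was 21.3 kb away. Their scores ran from 6.05 to 14.6, so none was strong. The interval held 1, 2, 0, 8, 8 and 8 peaks at -24, 0, 6, 12, 24 and 72 h. Of the 8 peaks of 12 h, 6 had a peak at 24 h and 6 at 72 h. At 48 h, 1 of the 8 had a peak in wild-type cells, 1 in the Myod1 knockout, 1 in H23, 3 in H3, 3 in H34 and 4 in H1. The wild-type library at 48 h was therefore low between 2 libraries that were high. The leftmost peak, chr2:172847574-172847735, was the one present at -24 and 0 h and in all 6 libraries at 48 h.

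**Figure D4:**
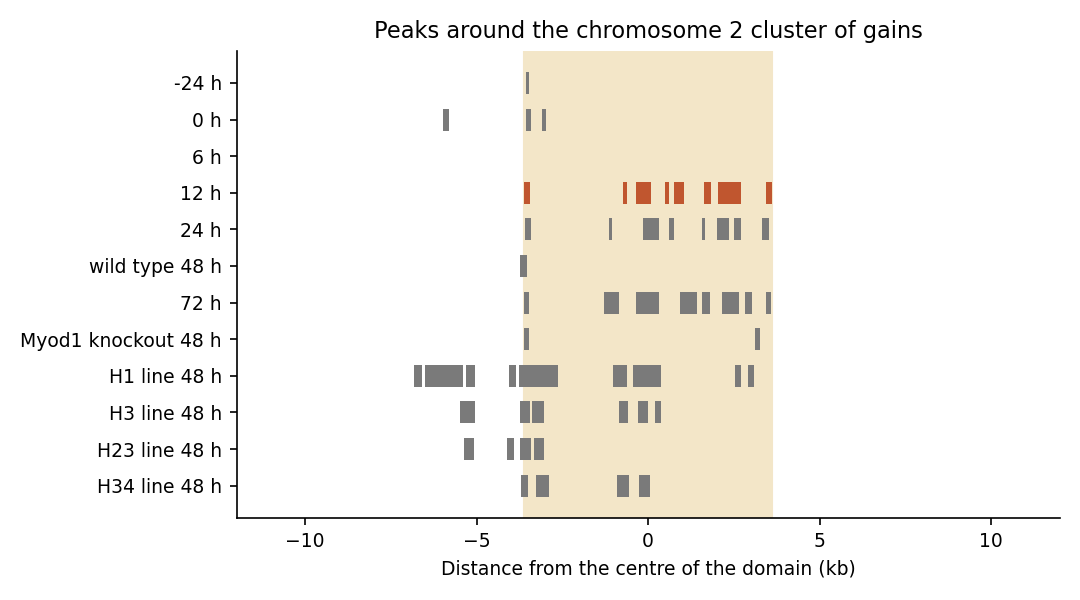
Peaks (bars) of the 12 libraries around the chromosome 2 cluster of gains, by distance in kb from the centre of the domain (shaded). The 12 h library is in orange. Within the shaded interval the 6 h row is empty, the 12, 24 and 72 h rows hold 8 peaks each, and the wild-type row at 48 h holds 1.

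Lost peaks had been present earlier more often than gains, and most were absent at 24 and 72 h, while 39.4% had a peak in wild-type cells at 48 h. Of the 14817 lost peaks, 6472 (43.7%, 42.9 to 44.5) had a peak at -24 or 0 h, and 6830 (46.1%, 45.3 to 46.9) had one in none of the 5 other time course lists of the same format. Over all 6 h peaks 80.5% had a peak at -24 or 0 h, against 69.7% over all 12 h peaks, so the whole lists differed in the same direction. Of the shared peaks of 6 h and 12 h, 88.6% and 89.0% had one. By class the share was 96.0% of the strong losses, 69.5% of medium, 49.1% of low and 36.4% of weak ones. Over all 6 h peaks 70.2% had a peak at 24 or 72 h. Of the losses 3365 (22.7%, 22.0 to 23.4) did, with 14 of the 25 strong ones, 32.3% of medium, 24.5% of low and 20.1% of weak ones. Kept 6 h peaks of the same classes did so in 99.0%, 86.4%, 67.5% and 57.3% of cases.

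Peaks present at -24, 0 and 6 h and absent at 12, 24 and 72 h numbered 1607, 10.8% of the losses. The strongest was chr9:3002061-3002191 with a 6 h score of 27.91, also near a chromosome start with repeats unchecked. The next were chr19:42011149-42011581 and chr11:23418605-23418996 with 26.87 each, and chr12:43050618-43050868 and chr13:90653360-90653566 with 23.9 each. All 5 were found again in the wild-type library at 48 h, where peaks covered 98.0 to 100% of each. A 12 h peak lay within 576 bp of 4 of the 5, and with a gap of up to 500 bp counted as shared 1 of the 5 kept its pattern. The chromosome 9 peak, 21284 bp from the nearest 12 h peak, was covered over 100% in all 6 libraries at 48 h and was the only one of the 5 found in the Myod1 knockout.

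Losses found at 6 h alone were led by chr4:82129968-82130150 with a score of 22.82, the only strong one. The others were chr13:49737668-49738043 and chr4:141160265-141160516 with 21.0 each, chr8:126196389-126196564 with 19.69 and chr11:113328955-113329153 with 19.57. The first was covered over 100% in wild-type cells at 48 h, and the other 4 were not found there. With a gap of up to 500 bp counted as shared, 2 of the 5 kept their pattern.

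The 5 domains of the 6 h list with the most lost peaks did not close. They were chr16:45030292-45111842 with 17 lost peaks, chr2:167552161-167717551, chr6:54179201-54237258 and chr3:60366835-60422552 with 16 each, and chr3:121243440-121355208 with 14. They held 46, 67, 47, 31 and 68 peaks at 6 h and 44, 92, 37, 29 and 66 at 12 h. The domain chr3:60366835-60422552 then held 12 peaks at 24 h and 7 at 72 h. At 48 h it held 18 peaks in wild-type cells, 26 to 51 in the hotspot lines and 0 in the Myod1 knockout, whose counts in the other 4 domains were 10 to 27.

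Later libraries differed in whether they held the gains or the losses of this step more often. Of all gains 20.5% (20.1 to 20.9) had a peak at 24 h, against 14.8% (14.3 to 15.4) of losses, and at 72 h the shares were 20.9% and 12.1%. Wild-type cells at 48 h gave the reverse order, with 26.6% of gains and 39.4% (38.6 to 40.2) of losses. The difference, gains minus losses, was 5.66, -12.9 and 8.8 points at 24, 48 and 72 h. Shared peaks of the 12 h and 6 h lists had a peak in 73.2% and 72.9% of cases at 24 h. The shares were 71.2% and 69.8% in wild-type cells at 48 h, and 65.1% and 65.4% at 72 h. Low gains and losses come from the same range of ranks in each list, but made up 51.2% and 25.3% of the low peaks there. They gave 24.1% against 16.5%, 30.1% against 42.8% and 23.5% against 12.7% at these times. Weak ones differed little at 24 h, with 12.9% of gains and 12.4% (11.7 to 13.1) of losses, within the counting error. Peaks of 151 to 300 bp alone gave the same order in each library. At -24 and 0 h, before the step, low losses were also found more often than low gains, in 28.4% against 19.4% and 39.4% against 32.2%. The 48 h list has another format, and its peaks, with a median of 420 bp, were wider than those of any other list of the course. The edited lines at 48 h, whose lists share that format, did not give a single order. The Myod1 knockout held 11.9% of all gains and 9.58% of all losses. The H1 line held 51.1% and 50.3%, a difference within the counting error. By class, H1 held 56.0% of low gains and 53.1% of low losses, but 43.6% and 46.6% of the weak ones. The H23, H34 and H3 lines held losses more often, as wild-type cells did, though by less. Their shares of all gains and losses were 51.3% and 54.1%, 49.9% and 55.2%, and 39.3% and 42.1%. Of the low ones, H34 held 54.6% and 59.4%. Between the wild-type list and the rest of the course, format and time cannot be told apart.

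**Figure D5:**
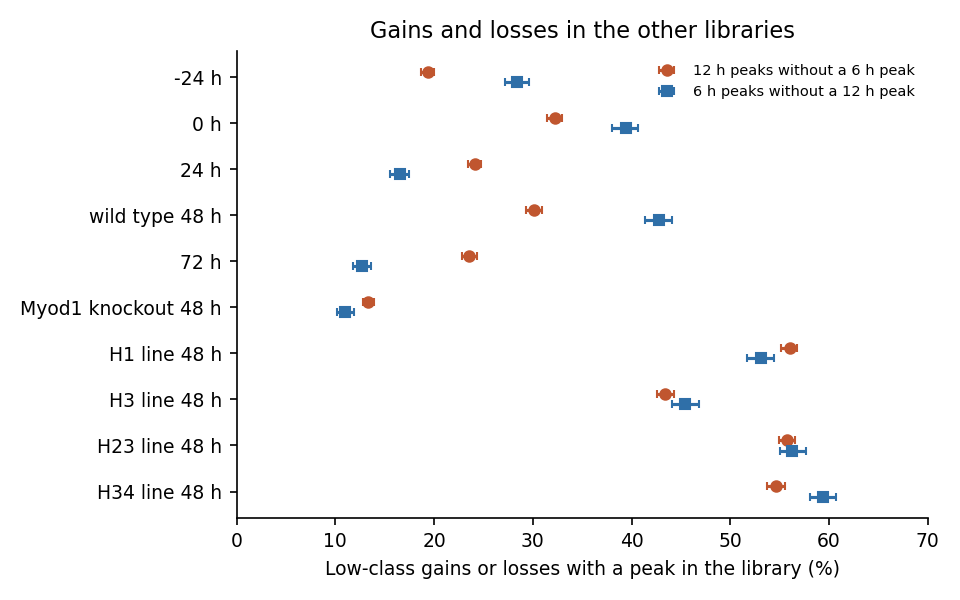
Percent of low-class gains (circles) and losses (squares) of the 6 to 12 h step that had a peak in the 10 libraries of other times or lines, with 95% Wilson intervals as bars. Gains lie to the right of losses at 24 and 72 h, and losses to the right of gains at -24 h, 0 h and in wild-type cells at 48 h.

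The Myod1 knockout was compared at places with a wild-type peak at 48 h. Over all such 12 h peaks, 56169 in number, 43.4% had no knockout peak. The share was 74.2% (73.3 to 75.1) for gains and 37.2% (36.7 to 37.6) for shared peaks, but gains are weaker, so the classes were read apart. Strong gains lacked a knockout peak in 36 of 64 cases (56.2%, 44.1 to 67.7), and strong shared peaks in 15.8% (15.3 to 16.3). Medium gains lacked it in 64.2% (61.9 to 66.5) and medium shared peaks in 50.3% (49.5 to 51.1). For low peaks the shares were 74.3% and 67.5%, and for weak peaks 78.8% (77.5 to 80.1) and 74.1% (72.5 to 75.6). Gains thus lacked the knockout peak more often in each class, by less where the peaks were weaker. With a gap of up to 500 bp counted as shared, the share of strong gains was 40.9%. The classes did not make strength equal. Over all strong peaks, gains had a median score of 23.08 and width of 304 bp, and shared peaks 37.11 and 662 bp. For medium peaks these were 12.78 and 234 bp against 14.6 and 359 bp. Weak gains and weak shared peaks both had a median score of 6.05, with 135 and 157 bp. The part of score and width in these shares was not tested.

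The hotspot lines gave the same order at lower levels. Medium gains present in wild-type cells were absent from the H1, H3, H23 and H34 lines in 10.9%, 23.9%, 14.7% and 13.3% of cases. For medium shared peaks these shares were 6.41%, 15.2%, 8.72% and 6.73%. The higher share among gains was therefore found in all 5 edited lines. Medium gains scored lower and were narrower than medium shared peaks here too, and the part of this was not tested. Of the new and lasting gains, 47.3% (44.8 to 49.7) were found in wild-type cells at 48 h, 18.9% (17.0 to 20.8) in the Myod1 knockout and 55.5 to 76.4% in the hotspot lines. Over all 12 h peaks these shares were 55.4%, 36.5% and 62.8 to 72.4%. For gains found at 12 h alone they were 16.6%, 7.67% and 30.0 to 41.8%. The hotspot lists held 103134 to 137960 peaks, the wild-type list 71281 and the knockout list 55585, so the lengths of the lists moved with these shares. Their part in them was not tested.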

How the data were processed

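ChIP-seq peak lists of 12 libraries were used. The labels describe 13 samples, and that of the CRISPR control (48 h) is not analysed here. The authors called peaks with MACS2 2.1.0 against mm9, per the submitters' processing notes. For the aligner, filters, control and cutoffs the sources used here give nothing. The 6 deposited time course lists have 5 columns, the last a score of unstated unit. The 6 deposited 48 h lists have 10 columns with a −log10 p-value per peak, used only for thresholds and ranking.

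Named regions were the 5 highest-scoring of each pattern and the 5 domains with most strong lasting gains or most losses, wider domains first among equals, chromosome 18 left out. Members and lists were chosen with earlier results of these data known. The overlap code, tested on simulated data with 20000 regions, found all 1000 gains and 500 losses put in. The simulated regions lay well apart, so gains close to other peaks and divided peaks were not part of that check. Alternatives were 50% overlap of the shorter peak, a 500 bp gap, midpoints, a score of 5, equal numbers, merging within 1 kb and lists divided at the median. Python 3.11.15, numpy 2.4.6, pandas 2.3.3, scipy 1.17.1 and matplotlib 3.10.9 were used.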

Additional observations from a re-analysis of the deposited data

How the results depend on the processing

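The differences of gains minus losses kept their sign under the alternatives run. The other results were single counts or shares, which could move but had no direction to change. The Myod1 knockout share of shared peaks was not rerun, so that comparison with gains was not tried under the alternatives. Of 97 alternative values for 14 results, 60 moved by more than counting error (counts by more than a set ratio) and 37 did not. The settings below are 50% overlap of the shorter peak, a gap of up to 500 bp counted as shared, the midpoint inside the other peak, equal numbers of strongest peaks, merging within 1 kb, and classes divided at the median score. In that order, the gained share was 39.0, 19.8, 44.3, 26.6 and 30.4%, and the lost share 22.2, 7.47, 26.5, 22.9 and 14.9%. With the 40000 strongest peaks, a setting chosen after the data were seen, they were 19.0 and 16.9%. Strong gains numbered 33 with the gap, 1344 by midpoint, 23 at equal numbers, 2 after merging and 4138 above the median. From here on, equal numbers are set by the shortest list followed, 69251 peaks, where 14 strong gains were left. The share of strong gains at both 24 and 72 h was 23.6% by midpoint, 78.6% (11 of 14) at equal numbers and 24.4% above the median. For weak gains it was 3.29% with 50% overlap, 10.9% with the gap, 2.81% by midpoint, 10.2% at equal numbers and 7.08% below the median. For strong shared peaks it was 91.7, 95.9, 71.7, 96.8, 99.0 and 73.6% over the 6 settings. An earlier peak was found for 66.7% of strong gains by midpoint, 85.7% (12 of 14) at equal numbers, 100.0% after merging and 59.4% above the median, and for 21.6, 33.7, 20.4, 35.8, 20.2 and 31.2% of weak gains over the 6 settings. New and lasting gains numbered 552 after merging. Lost peaks found at 24 or 72 h were 21.6, 27.2, 20.9, 29.6 and 18.8% over the first 5 settings. Strong gains without a Myod1 knockout peak were 40.9% with the gap and 0.0% after merging, where 1 such gain was left. Gains minus losses at 24 h was 4.67, 9.73, 3.86 and 9.82 points over the first 4 settings, and at 72 h 6.5, 13.9, 6.25 and 14.4 points. In wild-type cells at 48 h it was -11.1 points with 50% overlap, -7.98 at equal numbers and -8.9 after merging. These differences, and the counts of named regions that kept their pattern, were added after the data were seen, and the cause of the shifts was not tested. No paired analysis was possible because each time had 1 library.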

Other observations

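The X chromosome lay outside the range of the autosomes in this step. Of its 12 h peaks 29.8% were gained, against 33.4% (chromosome 17) to 37.6% (chromosome 15) on the autosomes. Of its 6 h peaks 22.7% were lost, against 14.1% (chromosome 11) to 21.9% (chromosome 13). The X interval for gains, 27.6 to 32.2, overlapped that of chromosome 17, 32.1 to 34.8. For losses the X interval, 20.6 to 25.0, overlapped that of chromosome 13, 20.6 to 23.3. The gained share of the X was also below every autosome among medium peaks (11.2%, autosomes 14.2 to 18.1%), low peaks (43.4%, 47.7 to 55.4%) and weak peaks (65.2%, 71.7 to 76.8%). Its lost share was within the autosomal range among medium and low peaks, at 6.39% and 26.3%, and above it among weak peaks, at 49.0% against 35.9 to 46.3%.

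The next 4 clusters of gains without a 6 h peak, by number of peaks, held 0 to 2 peaks at 24 h and 0 to 3 at 72 h. The region chr7:89320100-89338113 held 7, 0, 7, 2 and 0 peaks at 0, 6, 12, 24 and 72 h. In chr12:33704736-33725628 the 7 peaks of 12 h were likewise followed by 2 at 24 h and 0 at 72 h. The region chr2:101966482-101971178 held 6 peaks at 12 h, 1 at 24 h and 3 at 72 h. These regions were singled out after the values were seen.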
